A study of Mus musculus with 4 samples.

Results

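The Ncoa and Ncor genes encode coactivators and corepressors of nuclear receptors, and 8 of them were looked up in a table of differentially accessible regions of long-term hematopoietic stem cells (LT-HSCs): Ncoa1, Ncoa2, Ncoa3, Ncoa4, Ncoa5, Ncoa6, Ncoa7 and Ncor1. Peaks were assigned to a gene by the gene name the table gives, and 2 of its 5332 peaks carried one of these names. Both belonged to Ncoa2. The other 7 genes had no row in the table analysed here. This table holds fewer peaks than the study counts, so an absent row does not show that a gene had no differential peak. The peaks were selected on the same measurement described below, because the authors kept only peaks that passed their own comparison of the genotypes at an FDR below 0.05. The levels and fold changes of the Ncoa2 peaks are therefore given as a description, without a test.

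Accessibility was measured by ATAC-Seq, in which the Tn5 transposase inserts sequencing adapters preferentially where DNA is free of nucleosomes. There were 2 libraries of wild-type cells (WT, called Sin3B+/+ here) and 2 of Sin3B-null cells (3BKO, called Sin3B-/-), all at homeostasis, and each library pooled LT-HSCs of 2 mice. All mice were C57BL/6. The mutants carried floxed Sin3B alleles and the Vav1-iCre transgene, which drives recombination throughout the hematopoietic system from embryonic life onward, so Sin3B was absent from the blood lineage long before the cells were sorted. The age of these mice was not given in the sources used here. The study names the ATAC-Seq control both as Sin3B+/+ and as floxed without Cre, so whether the controls carried floxed alleles is not settled. The amount of transposase was scaled to the number of cells sorted, and fewer cells cannot be told apart from less accessible DNA per cell in bulk libraries. Cells were sorted from marrow as lineage-negative, Sca-1+, cKit+, Flk2-, CD48- and CD150+. The table had no peak named for Sin3b and held peaks of 6 of 12 LT-HSC marker genes and 2 of 12 marker genes of other marrow cells, and since it lists only differential peaks this checks neither the genotype nor the cell type.

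Nuclear receptors are transcription factors that bind lipid-soluble ligands such as steroids, retinoids and thyroid hormone. When a ligand is bound, many of them recruit coactivators of the Ncoa1, Ncoa2 and Ncoa3 group, which in turn bring histone acetyltransferases such as p300 and arginine methyltransferases. Without ligand, several of them hold corepressors such as Ncor1, a scaffold that carries the histone deacetylase Hdac3. Sin3B is itself a scaffold of a histone deacetylase complex, and retinoid signaling is known to help keep LT-HSCs dormant. Ncoa4 to Ncoa7 share the name more than the mechanism: Ncoa4 is best known as the receptor that delivers ferritin to autophagy, Ncoa6 belongs to a histone methyltransferase complex with Kmt2c or Kmt2d, and Ncoa7 is related to oxidation resistance proteins.

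Ncoa2 (ENSMUSG00000005886.14), also known as TIF2 or GRIP1, lies on the minus strand of chromosome 1 from 13139105 to 13374083 in GRCm38 and spans 234979 bases. Both peaks lay in introns near its 3′ end and overlapped no annotated exon. The peak nearer to the end of the gene, called the downstream peak, covered chr1:13154271-13155245, a width of 975 bases. Its centre was 219325 bases from the gene start and 15653 bases from the gene end, in intron 16 of 22 of the coding transcript with the most introns. The upstream peak covered chr1:13162308-13162923, a width of 616 bases, with its centre 211468 bases from the gene start, in intron 13 of 22 of the same transcript. It began 19 bases from the nearest exon. The centres were 7857 bases apart. No peak of the table had its centre closer than 211468 bases to the start of Ncoa2. Neither the annotated start of the gene nor the long first part of its body therefore held a differential peak in this table. Among the annotated Ncoa2 transcripts, the nearest start was inside the gene at 13151018. It lay 3740 bases from the centre of the downstream peak and 11597 bases from that of the upstream peak.

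**Figure D1:**
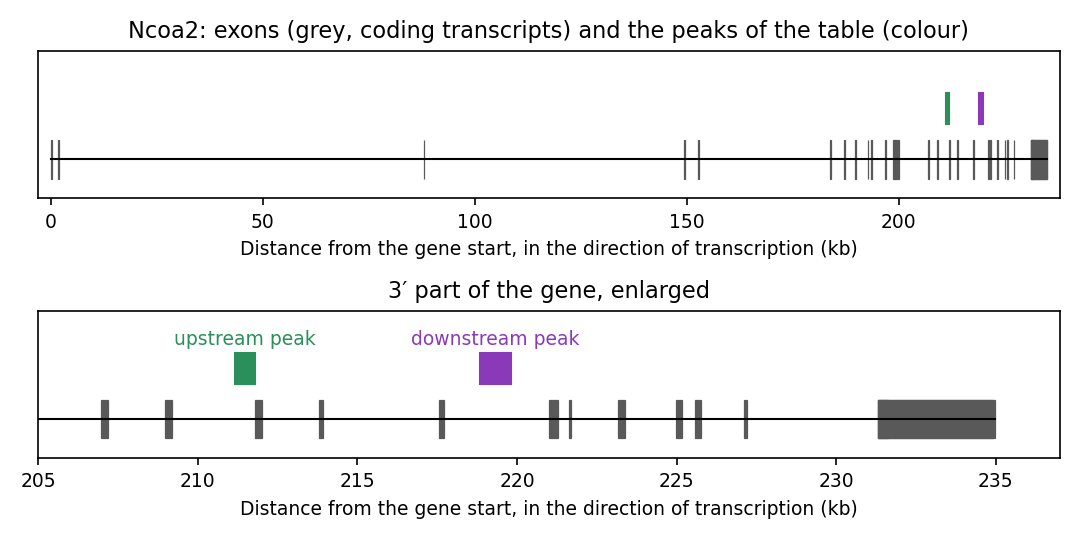
Map of Ncoa2 drawn to scale, with the distance from the gene start in kb along the direction of transcription on the x axis, exons of its coding transcripts in grey and the peaks of the table in colour. Both peaks sit beyond 200 kb, between exons of the 3′ part of the gene.

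The sequences at the peak centres are shown because they are the regions whose accessibility is described, and each spans 300 bases of the GRCm38 plus strand, from 5′ to 3′, which is the strand opposite to the transcript. Capitals mark matches to any of 12 short motifs searched on both strands without mismatch. The motif of most interest here was AGGTCA, the half-site bound by many nuclear receptors. Promoter elements searched were the CRE as TGACGTCA, then the E-box as CACGTG, the GC box as GGGCGG, and the NF-Y box as CCAAT. Factor motifs searched were that of ETS factors as CCGGAAG, that of AP-1 as TGACTCA, that of GATA factors as AGATAA, that of RUNX factors as TGTGGT and an NRF1-like one as GCGCATGC. The cell cycle element CHR was searched as TTTGAA, and a variant of it as TTCGAA. The third sequence, of 109 bases, is the right-hand end of the downstream peak, with only AGGTCA in capitals.
Ncoa2 downstream peak, chr1:13154609-13154908: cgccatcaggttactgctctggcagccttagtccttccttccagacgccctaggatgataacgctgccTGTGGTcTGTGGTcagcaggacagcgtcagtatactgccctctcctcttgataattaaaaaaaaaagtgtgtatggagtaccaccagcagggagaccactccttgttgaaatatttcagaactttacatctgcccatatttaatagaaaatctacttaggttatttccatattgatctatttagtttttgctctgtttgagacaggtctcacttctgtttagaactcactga
Ncoa2 upstream peak, chr1:13162466-13162765: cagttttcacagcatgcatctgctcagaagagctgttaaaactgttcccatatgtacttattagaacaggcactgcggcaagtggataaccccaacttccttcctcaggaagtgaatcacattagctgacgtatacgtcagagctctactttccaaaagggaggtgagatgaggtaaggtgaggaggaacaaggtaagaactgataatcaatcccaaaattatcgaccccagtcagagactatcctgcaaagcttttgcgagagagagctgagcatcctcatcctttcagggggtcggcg
Ncoa2 downstream peak, right-hand end, chr1:13155137-13155245: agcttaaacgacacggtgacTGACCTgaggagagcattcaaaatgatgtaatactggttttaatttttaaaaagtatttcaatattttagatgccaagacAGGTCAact

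In the central 300 bases the downstream peak matched 1 of the 12 motifs, TGTGGT, at 2 places 7 bases apart. Both matches lay wholly in repeat-masked bases. Of all 5332 peaks, 28.1% had this motif in the same window. The upstream peak matched 0 of the 12, against a median of 2 over all peaks. AGGTCA was in neither window and was found in 16.2% of the windows of all peaks. Over its whole width the downstream peak held AGGTCA 2 times, once on each strand and 80 bases apart, both near its right-hand end as printed above. The upstream peak held none. Over whole peaks of any width AGGTCA occurred in 33.4% of the table. A match is a run of letters and does not show that a factor binds there.

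Both peaks were poor in GC relative to the table. GC content was 45.8% in the downstream peak and 46.9% in the upstream peak, against a median of 53.3% over all peaks and 50.3% over intronic peaks. The downstream peak held 18 CpG dinucleotides and the upstream peak 11. Repeat-masked bases made up 20.9% of the downstream peak, more than in 84.9% of all peaks, and 7.95% of the upstream peak. The downstream peak was wider than 82.7% of all peaks, whereas the upstream peak was narrower than the median of 685 bases.

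The values per library are normalized read levels, the reads in the peak multiplied by the authors' factor for that library. Sin3B+/+ replicates 1 and 2 had levels of 130.7 and 140 at the downstream peak, where Sin3B-/- replicates 1 and 2 had 337 and 354. Both Sin3B-/- libraries lay far above both Sin3B+/+ libraries and each pair of replicates was tight. The Sin3B+/+ mean was 135 ± 6.68 (SD, n = 2), and the Sin3B-/- mean was 346 ± 11.7 (SD, n = 2). The log2 fold change, the log2 of summed Sin3B-/- over summed Sin3B+/+ levels, was 1.35, or 2.55-fold. The 4 ratios of 1 Sin3B-/- to 1 Sin3B+/+ library ranged from 1.27 to 1.44 on the log2 scale.

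The upstream peak had lower levels and a less even signal. Levels are per peak and not per base, and this peak was narrower, at 616 against 975 bases. Sin3B+/+ replicates 1 and 2 had levels of 45.9 and 24.0 there, and Sin3B-/- replicates 1 and 2 had 90.0 and 68. The genotypes did not overlap, but the lowest Sin3B-/- library exceeded the highest Sin3B+/+ library by only 22.1 level units, against 197 in the downstream peak. The Sin3B+/+ mean was 34.9 ± 15.5 (SD, n = 2), and the Sin3B-/- mean was 79.0 ± 15.5 (SD, n = 2). This is a log2 fold change of 1.18, or 2.26-fold. The 4 single-library log2 ratios ranged from 0.57 to 1.91, so the size of this change depended on which libraries were set against each other. Without Sin3B+/+ replicate 1 the log2 fold change was 1.72, and without Sin3B+/+ replicate 2 it was 0.78.

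**Figure D2:**
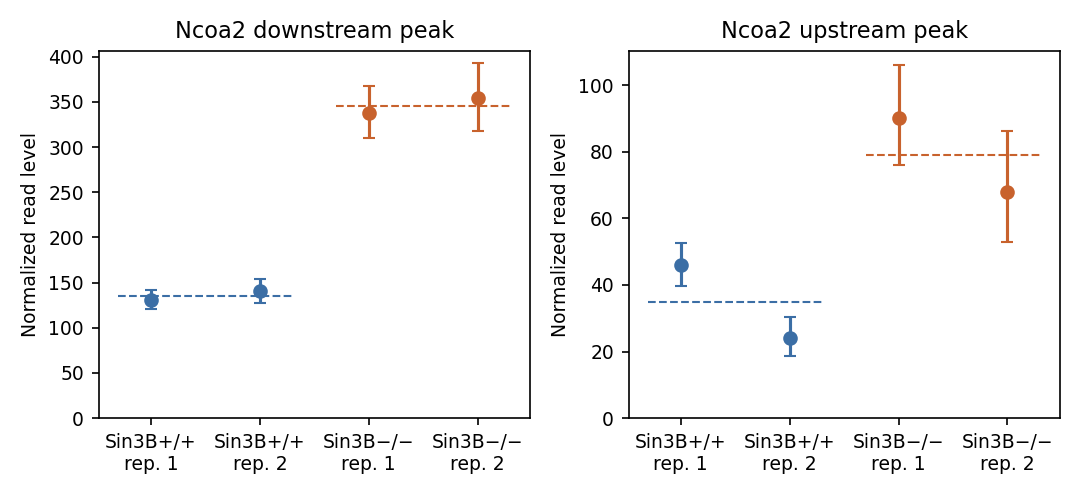
Normalized read level (y axis, from 0) of the Ncoa2 peaks in each library (x axis). Points are libraries, bars are 95% exact Poisson intervals of the inferred reads on that scale (counting error only) and dashed lines are the mean of each genotype (n = 2). In both panels the Sin3B-/- points lie above the Sin3B+/+ points on the authors' scale, and the Sin3B+/+ points of the upstream peak are separated beyond their intervals.

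The reads behind these levels could be inferred, since every value of a library is a whole number times a fixed step. For the downstream peak they numbered 573 and 409 in Sin3B+/+ against 540 and 354 in Sin3B-/-. For the upstream peak they numbered 201 and 70 against 144 and 68. As unscaled reads, neither peak was higher in Sin3B-/- LT-HSCs, and the genotypes overlapped in both. Unscaled reads do not allow for depth. The authors' factors make 1 read worth 0.228 and 0.343 level units in Sin3B+/+ replicates 1 and 2. In Sin3B-/- replicates 1 and 2 they make it worth 0.625 and 1 unit. The log2 fold changes were above 0 with these factors. They were also above 0 with each library divided by its table median, at 0.59 downstream and 0.46 upstream. On that last scale the genotypes overlapped in the upstream peak. Over the whole table the inferred reads numbered 8705855 and 4836132 in Sin3B+/+ and 4541377 and 3102888 in Sin3B-/-. The 95% exact Poisson intervals of the levels were 120.3 to 142 and 127 to 154 in the Sin3B+/+ replicates of the downstream peak and overlapped. In the upstream peak they were 39.7 to 52.7 and 18.7 to 30.3 and did not. These intervals cover counting error only, so the Sin3B+/+ replicates of the upstream peak differed by more than counting error. Their ratio of 1.91 was exceeded by 0.488% of all peaks, whose median ratio was 1.21. In the downstream peak the ratio was 1.07.

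Among all peaks of the table, 95.7% had both Sin3B-/- libraries above both Sin3B+/+ libraries, and 22.8% had a log2 fold change of at least 1. Both Ncoa2 peaks met both descriptions. The rule that chose them used this contrast, so nothing is read from these counts. The median log2 fold change of the table was 0.76 (interquartile range 0.63 to 0.97), which places the downstream peak 0.59 and the upstream peak 0.42 log2 units above it. The downstream peak had a larger log2 fold change than 93.3% of all peaks and than 89.6% of the 1766 intronic peaks, whose median was 0.85. The upstream peak exceeded 87.3% and 81.3%. In mean level over the 4 libraries the downstream peak stood near the middle, above 47.7% of all peaks, and the upstream peak low, above 10.4%.

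**Figure D3:**
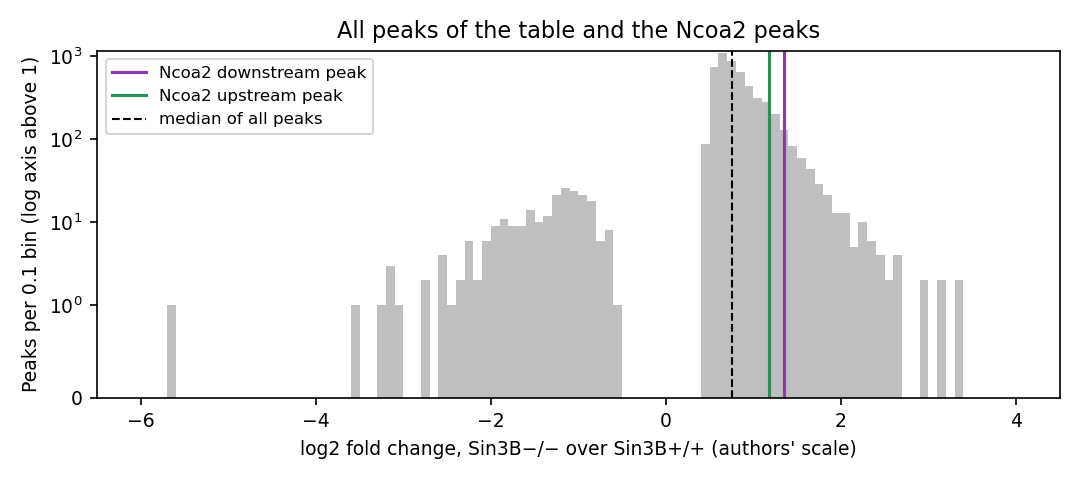
Number of peaks (y axis, log scale above 1) per 0.1 bin of log2 fold change on the authors' scale (x axis) for all 5332 peaks, with the table median of 0.76 dashed and the Ncoa2 peaks as coloured lines at 1.35 and 1.18. Both lines fall in the upper part of the gains and short of its largest values. With unscaled reads both values are below 0, as is the table median of -0.77, and they lie 0.64 and 0.42 above that median.

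The Ncoa2 peaks were like each other in fold change and unlike in level. The log2 fold change of the downstream peak was 0.17 larger, less than the spread of the single-library ratios of the upstream peak. The downstream peak was 3.88 times as high as the upstream peak in Sin3B+/+ and 4.38 times as high in Sin3B-/- LT-HSCs by mean level per peak. Within single libraries this ratio ran from 2.85 to 5.84, both ends being Sin3B+/+ libraries. The Sin3B-/- libraries, at 3.75 and 5.21, lay between them. A gene with 2 or more peaks was not rare in the table, with 726 of 4376 gene names, or 16.6%.

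The peaks most like the downstream peak were found by the Euclidean distance over the 4 values of log2(level + 1). The closest was an intronic peak named for Bop1, a ribosome assembly factor, at a distance of 0.10 and with a log2 fold change of 1.38. The next was an intronic peak named for Zfpm1, the GATA cofactor FOG1, at 0.25 and with 1.24, followed by an intronic peak named for Ppp2r5c, a regulatory subunit of protein phosphatase 2A, at 0.26 and with 1.19. These likenesses rest on 4 libraries and peaks that share the same contrast.

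For the 7 genes without a row, the nearest peak of the table lay between 7949 and 336208 bases from the gene, with a median of 32692. For 2 of them it was within 10000 bases. The closest was beside Ncor1 (ENSMUSG00000018501.17), the corepressor scaffold on the minus strand of chromosome 11 from 62316426 to 62458541. That peak, chr11:62466490-62467140, was 7949 bases upstream of Ncor1, in an intron and named for the neighbouring gene Pigl, an enzyme of glycosylphosphatidylinositol anchor synthesis. Sin3B+/+ replicates 1 and 2 had levels of 165 and 125 in it, Sin3B-/- replicates 1 and 2 had 505 and 512, and the genotypes were far apart. The log2 fold change was 1.81, larger than that of 98.5% of all peaks. It was 1.07 with each library divided by its table median and 0.28 with unscaled reads. The unscaled reads numbered 722 and 365 in Sin3B+/+ and 809 and 512 in Sin3B-/- replicates 1 and 2, so the genotypes overlapped on that scale. Its direction there rested on single libraries, with -0.13 without Sin3B+/+ replicate 2 and -0.086 without Sin3B-/- replicate 1.

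Beside Ncoa3 (ENSMUSG00000027678.17), the steroid receptor coactivator on the plus strand of chromosome 2 from 165992636 to 166073242, a peak named for Platr29 lay 9252 bases upstream. Sin3B+/+ levels were 159 and 144 and Sin3B-/- levels 226 and 346, which gave a log2 fold change of 0.92. The Sin3B-/- replicates of this peak differed more than its Sin3B+/+ replicates. The peak nearest to Ncoa7 was 10273 bases beyond its 3′ end at Hint3, with a log2 fold change of 0.54. For Ncoa6 it was 32692 bases away at Pigu with 0.62, and for Ncoa1 35812 bases away at Cenpo with 0.74. For Ncoa5 and Ncoa4 the nearest peaks, at Zfp335os and Ercc6, were 87867 and 336208 bases away, with log2 fold changes of 0.99 and 1.24. In all 7 of these neighbouring peaks the Sin3B-/- libraries lay above the Sin3B+/+ libraries on the authors' scale, beside 95.7% of the table. With unscaled reads the median log2 fold change of all peaks was -0.77. On that scale 6 of the 7 neighbouring peaks, all but the one beside Ncor1, were below 0. The table names each of these peaks for another gene, and whether any of them acts on its Ncoa or Ncor neighbour was not tested.

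The wider coregulator pathway was described from a list of 64 genes that are no members, of which 23 had a peak, with 26 peaks in all. Among all 21924 protein-coding gene names of the annotation, whether active in these cells or not, 3446 had one, or 15.7%. Genes that are silent in LT-HSCs enter the second share, and nothing is read from the difference. In each of the 26 both Sin3B-/- libraries lay above both Sin3B+/+ libraries on the authors' scale, and 5 of them, or 19.2%, had a log2 fold change of at least 1, beside 22.8% of the table. Their median log2 fold change was 0.74, beside 0.76 over all peaks. With unscaled reads all 26 were below 0, where the median of all peaks was -0.77. With each library divided by its table median 10 were above and 16 below 0. The Ncoa2 peaks thus had larger log2 fold changes than the middle of this list, while the list itself stood near the middle of the table.

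On the corepressor side 3 of 9 genes had a peak. The largest log2 fold change was in an intron of Tbl1x, a subunit of the complex that Ncor1 forms with Hdac3. Its mean level was 93.3 ± 26.2 (SD, n = 2) in Sin3B+/+ against 219 ± 7.28 (SD, n = 2) in Sin3B-/-, and its log2 fold change was 1.23. Nrip1, a corepressor recruited by ligand-bound receptors, had an intergenic peak with a log2 fold change of 0.66.

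On the coactivator side 6 of 17 genes had a peak. The largest log2 fold change was 1.25, at an exonic peak of Kmt2d, a histone methyltransferase whose complex contains Ncoa6, with a Sin3B+/+ level of 57.1 ± 3.73 (SD, n = 2) and a Sin3B-/- level of 136 ± 15.0 (SD, n = 2). The smallest was 0.55, at the promoter of Carm1, an arginine methyltransferase that Ncoa2 and its relatives recruit, with 1756 ± 382 (SD, n = 2) and 2570.4 ± 220.01 (SD, n = 2). Among the nuclear receptors 14 of 38 genes had a peak, with 17 peaks. Their log2 fold changes ran from 0.47 at Nr4a3 to 1.28 at Nr4a1, orphan receptors of the same immediate-early family.

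**Figure D4:**
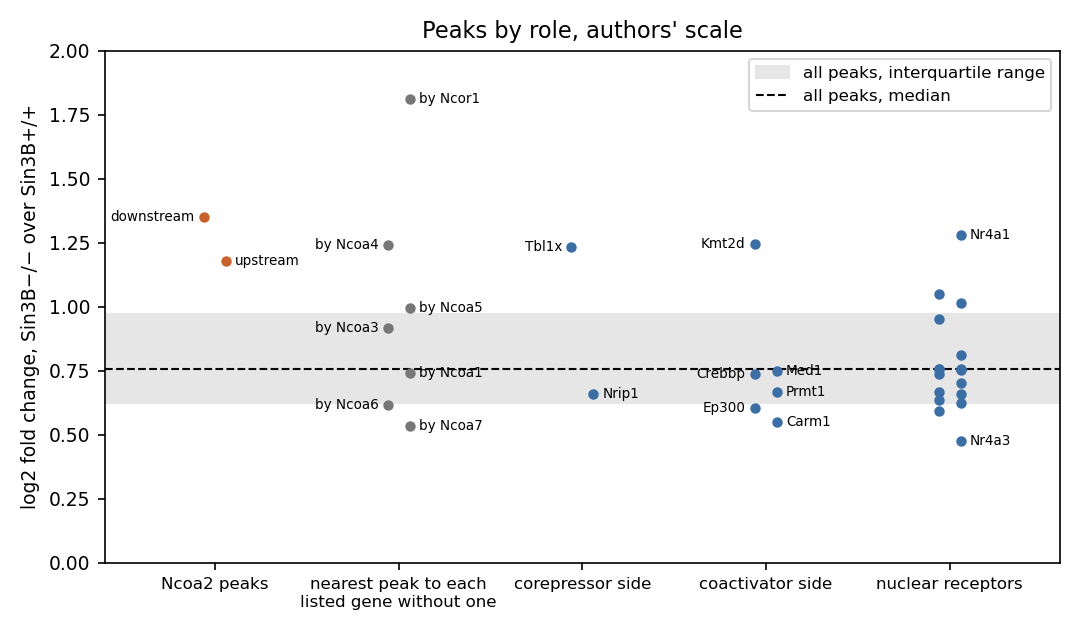
Log2 fold change on the authors' scale (y axis) of the Ncoa2 peaks, of the peak nearest to each of the 7 listed genes without a row, and of the peaks of related genes by role (x axis), each point being 1 peak and 1 of the 26 related peaks not being plotted. The dashed line is the median of all peaks, 0.76, and the grey band their interquartile range. All points lie above 0 on this scale. The Ncoa2 peaks and the peaks nearest to Ncor1, Ncoa4 and Ncoa5 lie above the band, and most related peaks lie within it or below. With unscaled reads all points but the peak beside Ncor1 fall below 0, as does the median of all peaks (-0.77).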

How the data were processed

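ATAC-Seq was measured in 2 Sin3B+/+ and 2 Sin3B-/- LT-HSC libraries. After trimming, bowtie2 alignment and duplicate removal by sambamba, the authors called peaks with MACS2 and used DESeq2 within DiffBind to normalize and compare them. Versions are not given in the sources used here. The deposited levels per library are a signal, reads per peak times 1 factor per library, and how the factor was chosen was not stated. The authors' log2 means and fold and their p-value and FDR columns hold their own comparison and were not used. Labels name mm9, but the gene identifiers of 5330 of 5332 peaks were in GENCODE M21 (GRCm38), 96.6% with the same gene span, so GRCm38 was used.

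The members and lists were chosen with earlier results of these data known. Members are the peaks whose gene name is 1 of the 8. All members and, per role of the related list, the largest and the smallest gain and every loss were named, besides the Nrip1 peak and the peaks nearest to genes without a row, named after their values were seen. The smallest gain on the corepressor side is not reported here. Peaks were placed with the comprehensive GENCODE M21 transcripts. A promoter ran from 1000 bases upstream to 100 downstream of a transcript start. Sequences were read from the GRCm38 RefSeq genome. Every library's values were whole multiples of its step within 0.01 in 100% of peaks, which gave the inferred reads. Total depth is unknown here. A count test was not run, because the table holds only peaks chosen by the same contrast. With 2 libraries per genotype an exact two-sided permutation test cannot go below p = 0.33. Replicates are pools of different mice. Alternatives were other library scales, a pseudocount of 1, a replicate block, leaving out each library, assignment by gene body and a wider motif window. Software was Python 3.11.15, numpy 2.4.6, pandas 2.3.3, scipy 1.17.1 and matplotlib 3.10.9.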

Additional observations from a re-analysis of the deposited data

How the results depend on the processing

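The direction of the Ncoa2 peaks depended on the library scale. With each library divided by its median over the table, which removes the shift common to the table, the log2 fold change was 0.59 in the downstream and 0.46 in the upstream peak. Then 1 of the 2 peaks, the downstream one, had both Sin3B-/- libraries above both Sin3B+/+ libraries. Neither had a log2 fold change of at least 1. The table holds only differential peaks, 95.7% of them with both Sin3B-/- libraries above both Sin3B+/+ libraries. This division therefore also removes the common part of the gain for which the peaks were selected. With inferred reads and no scaling the values were -0.14 and -0.35, while the table median moved from 0.76 to -0.77. Relative to that median they were 0.64 and 0.42 higher. Unscaled reads do not allow for depth, and which scale is right was not tested.

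With a replicate block on log2(level + 1) the changes were 1.35 (SE 0.015) and 1.21 (SE 0.25), and without it the SE was 0.061 and 0.495. Same-numbered libraries came from different mice, so they share only a number. Leaving out each library kept both peaks higher in Sin3B-/-, and the number of peaks with a log2 fold change of at least 1 ranged from 1 to 2, the upstream peak losing it without Sin3B+/+ replicate 2 (0.78) and without Sin3B-/- replicate 1 (0.96). For the peak beside Ncor1, unscaled reads with each library left out, an alternative chosen after seeing the data, gave -0.13 to 0.86, below 0 without Sin3B+/+ replicate 2 (-0.13) and without Sin3B-/- replicate 1 (-0.086). Assignment by gene body gave the same count of 2 peaks. Over whole peaks the motifs matched were 3 in the downstream and 2 in the upstream peak, against a median of 3 over all peaks.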

Other observations

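Families of receptors within the related list were picked out after their values were seen. The retinoid receptors, whose ligand is tied to LT-HSC dormancy, had a peak in 4 of 6 genes, Rara, Rarb, Rarg and Rxra. Their log2 fold changes lay between 0.594 and 0.756, below the table median of 0.757, and 0 of the 4 reached 1. With libraries divided by their table medians they lay between -0.14 and 0.00419. The Nr4a receptors, immediate-early orphan receptors, had a peak in 3 of 3 genes with 6 peaks in all. Their log2 fold changes ran from 0.47 to 1.28 and 3 of the 6 reached 1, beside 22.8% of all peaks. After the same division 5 of the 6 were above 0, from -0.28 to 0.56. With unscaled reads the peaks of both families were below 0, where the median of all peaks was -0.77. Among all protein-coding gene names, those of genes silent in LT-HSCs included, 15.7% had a peak. Nothing is read from the difference to these families. Whether the families differ was not tested.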
